A study of Mus musculus with 4 samples.

Results

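Cells take up most of their iron as transferrin, the plasma iron carrier, which binds the transferrin receptor and is taken into the cell with it. Iron that is not used at once is stored in ferritin, a shell of heavy and light chains, and leaves the cell through the exporter ferroportin. In the brain, the endothelial cells of the vessels carry the transferrin receptor on their blood side and pass iron on to the tissue, while oligodendrocytes are rich in ferritin and make transferrin themselves. When iron is scarce, iron regulatory proteins bind hairpins in the messenger RNA of these genes, which protects the transferrin receptor messenger and blocks translation of ferritin and ferroportin.

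The data were the rows of 9 genes among 21861 features of single-cell RNA sequencing of mouse brain tumors. The genes were Tfrc (transferrin receptor), Trf (transferrin), Slc11a2 and Slc11a1 (iron transporters of endosomes and of phagosomes), Fth1 and Ftl1 (heavy and light chain of ferritin), Slc40a1 (ferroportin), Hmox1 (heme oxygenase, which releases iron from heme) and Ireb2 (an iron regulatory protein). They were chosen by their measured UMI levels in endothelial cells, macrophages and oligodendroglial cells at both ages. The values in those cells are therefore a description, with no test.

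Tumors came from 4 mice labelled hGFAP-cre::TP53Fl/Fl::lsl-MYCN, in which Cre under the human GFAP promoter, active in radial glia and so in many brain lineages, deletes Trp53 and switches on human MYCN with a firefly luciferase reporter. Mouse 4 and mouse 5 were 43 days old (P43), and mouse 6 and mouse 7 were 70 days old (P70). All 4 carried the same genotype, and no brain without a tumor was included. The authors describe the P43 samples as early tumor onset and the P70 samples as further developed tumors. They name the tissue taken as olfactory bulb or tumor. Age thus cannot be told apart here from tumor stage or from the share of normal tissue. Each mouse gave 1 tumor library, made from papain-digested tissue after lysis of red cells and removal of dead cells.

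The libraries held 1739 to 3693 barcodes and 13106786 to 40621958 UMIs (unique molecular identifiers, each counted as 1 RNA molecule). Of these barcodes, 3319, 1456, 2731 and 3469 cells of mice 4, 5, 6 and 7 were kept, with medians of 1419, 4200, 4587 and 10449 UMIs. Pairs of libraries shared 1 to 3 barcodes. RNA of 4 Y-linked genes came to 220, 0.527, 187 and 0 CPM (UMIs scaled to counts per 1000000) in the reporter-negative cells of mice 4, 5, 6 and 7, which goes against the sex labels of both P43 mice (mouse 4 female, mouse 5 male), and each age had 1 mouse with this RNA and 1 without. Doublets were limited only by the upper UMI limit, since the doublet caller marked 0 to 23 cells per library.

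Cells were grouped without the iron genes and named from marker genes. Endothelial cells (EC) numbered 419, 499, 296 and 36 in mice 4, 5, 6 and 7, and all 8 EC markers were detected in each mouse. Macrophages, microglia and monocytes (here Myeloid cells, led by C1qb, C1qa, C1qc, Apoe and Lyz2) numbered 53, 59, 790 and 144. Oligodendroglial tumor cells (OL-like cells, with the reporter and markers of the oligodendrocyte lineage) numbered 1780, 223, 310 and 1914. One of their 4 clusters, with 939 of the cells of mouse 4, was led by the neuronal genes Stmn2, Bex2 and Bex1, had 1 lineage marker (Bcas1) among its 10 leading genes and a median of 969 UMIs, so its name is uncertain. A further cluster of 411, 19, 105 and 314 reporter cells had the myelin genes Mobp and Mag among its leading genes. Mature oligodendrocytes (MOL) numbered 64, 59, 2 and 69. The MOL markers summed to 34489, 29101 and 11536 CPM in mice 4, 5 and 7, and the reporter RNA to 15.1, 25.6 and 522 CPM, so the MOL of mouse 7 held less of the markers and more of the reporter than those of P43. A cluster with 500 CPM of reporter RNA or more, summed over the mice, was counted as reporter cells. The MOL cluster held 147 CPM by that sum, but its cells of mouse 7 alone were above this limit.

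The hairpins in Tfrc, Fth1, Ftl1 and Slc40a1 are shown because they separate the messenger that iron regulatory proteins protect from those they block. The pattern searched on the transcript strand of GENCODE vM21 (GRCm38, the same assembly as mm10) was a C, 5 bases, the loop CAGTGN and 5 bases that pair with the 5 before the loop. G·U pairs were allowed and the last loop base was not G. Such a hairpin stood in the 5′ UTR of 21 of 20873 genes (0.101%) and in the 3′ UTR of 98 of 20981 genes (0.467%). Tfrc (chr16:32608920-32632794, plus strand) held 4 in its 3′ UTR, and Fth1 (chr19:9980598-9985098, plus strand), Ftl1 (chr7:45457944-45459884, minus strand) and Slc40a1 (chr1:45908068-45926523, minus strand) held 1 each in the 5′ UTR. Each is printed 5′ to 3′ with the loop in capitals.
Tfrc 3′ UTR, chr16:32631219-32631247: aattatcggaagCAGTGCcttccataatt
Tfrc 3′ UTR, chr16:32631598-32631626: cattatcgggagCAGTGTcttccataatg
Tfrc 3′ UTR, chr16:32631663-32631691: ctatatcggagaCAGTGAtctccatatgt
Tfrc 3′ UTR, chr16:32631710-32631738: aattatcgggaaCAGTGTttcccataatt
Fth1 5′ UTR, chr19:9982732-9982760: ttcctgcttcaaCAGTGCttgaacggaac
Ftl1 5′ UTR, chr7:45459779-45459807: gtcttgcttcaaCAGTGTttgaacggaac
Slc40a1 5′ UTR, chr1:45925465-45925493: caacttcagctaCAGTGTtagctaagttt
The pattern was not found in the UTRs of Slc11a2, Slc11a1, Hmox1, Trf and Ireb2. That says only that these letters and pairs are not in those stretches. A hairpin with an unpaired base in this part of the stem would be missed, so these members are not sorted by the search. Among 73 other genes of iron and heme handling, it was found in Alas2, the red cell enzyme of heme synthesis. A match describes the sequence and is not a measurement of binding. Blocked translation cannot be seen in RNA counts.

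Levels are the CPM of a gene in the summed UMIs of a class in 1 mouse, given where the mouse had at least 10 cells of the class. Intervals in brackets are exact Poisson intervals at 95% and cover counting error only. With 2 mice per age, the ages can fail to overlap by chance, and the share of all genes that do so is not given.

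**Figure D1:**
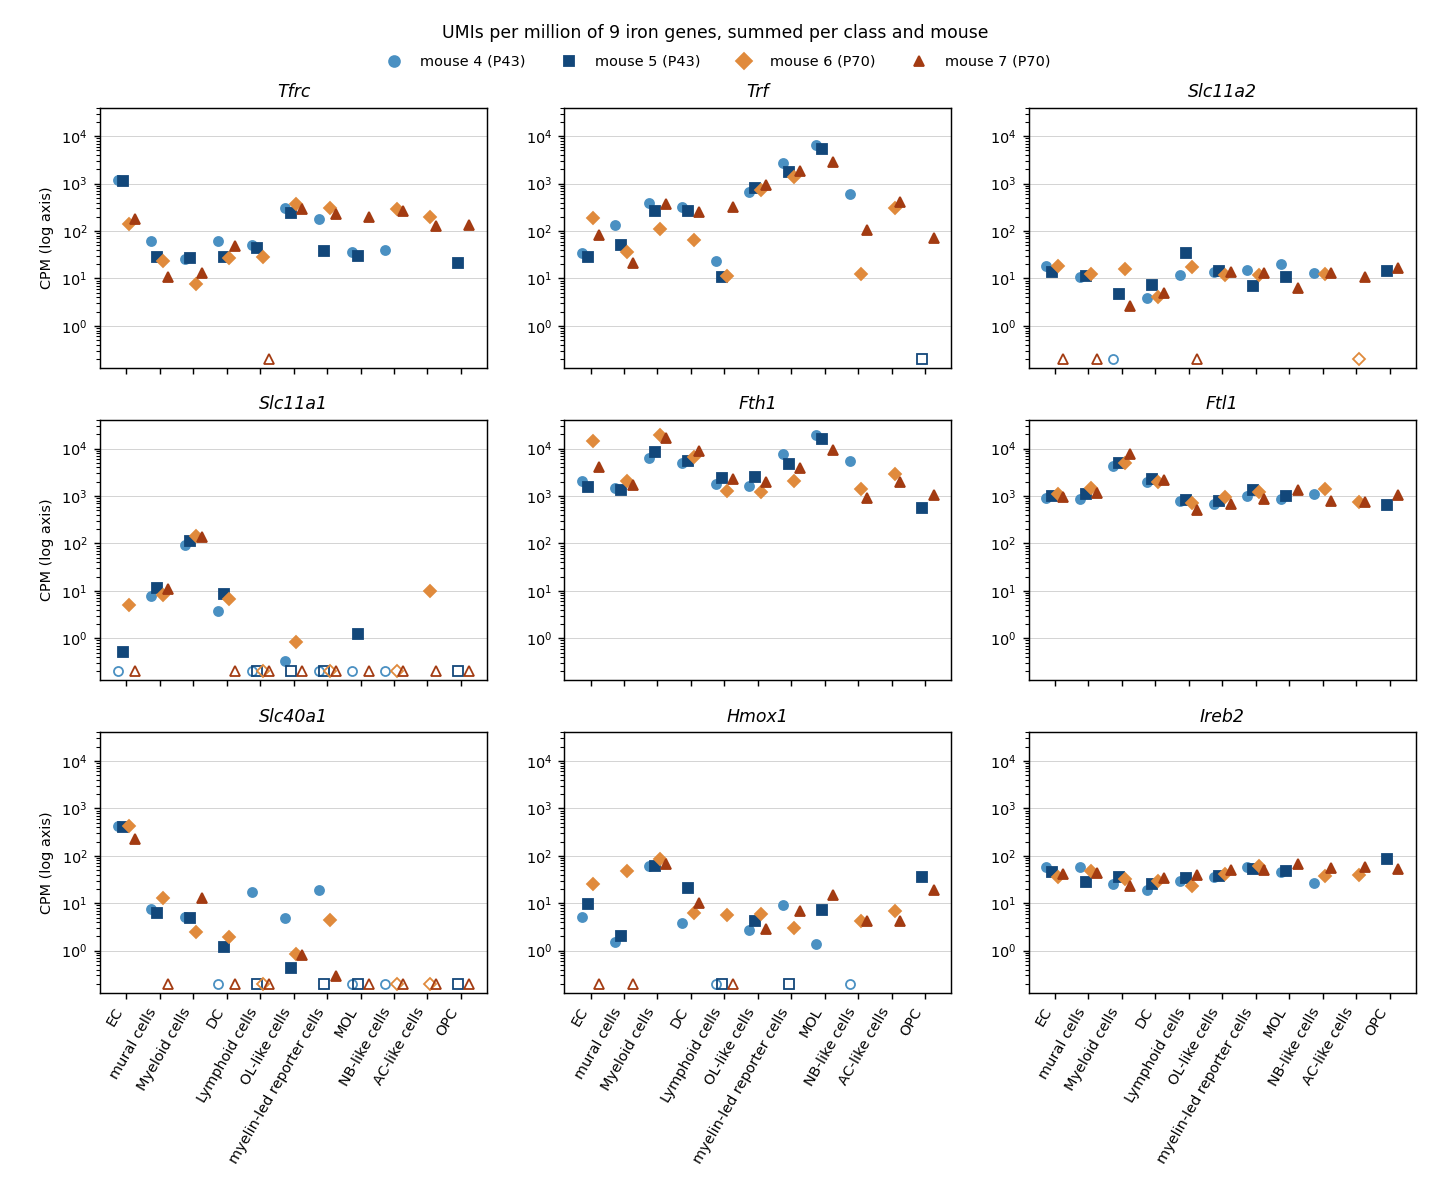
Level of each of the 9 genes (CPM, log axis) by cell class, with 1 symbol per mouse and open symbols at the bottom for 0 UMIs. Slc40a1 stood between 224 and 424 CPM in EC, and Trf between 2798 and 6553 CPM in MOL.

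Tfrc, the receptor that brings transferrin-bound iron into the cell, was high in EC at P43 and low in EC at P70. EC held 1172 CPM [1105 to 1243] in mouse 4, 1146 CPM [1099 to 1195] in mouse 5, 139 CPM [119 to 162] in mouse 6 and 182 CPM [96.7 to 311] in mouse 7. The values of the ages did not overlap, and the P43 mean of 1159 CPM was 7.23-fold above the P70 mean of 160 CPM. The P70 value of mouse 7 rested on 13 UMIs of 36 cells, that of mouse 6 on 168 UMIs. Without mouse 6 the log2 difference (P70 minus P43) was -2.67 and without mouse 7 it was -3.06, against -2.85 with all mice.

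In OL-like cells Tfrc was 307, 242, 381 and 292 CPM in mice 4, 5, 6 and 7, a mean of 306 ± 57.4 (SD, n = 4), and the ages overlapped. The class with the higher Tfrc level thus differed between the ages, at P70 beyond counting error in mouse 6 only. In mouse 7 the EC interval [96.7 to 311] covered the OL-like level of 292 CPM. EC held 3.81 and 4.74 times the level of OL-like cells in the P43 mice, while OL-like cells held 2.74 and 1.61 times the level of EC in the P70 mice. Without the cluster led by Stmn2, OL-like cells held 293, 244, 382 and 298 CPM, and that cluster itself spread most, with 431, 86.4, 287 and 183 CPM. The 2 largest clusters gave 245 to 368 CPM and 248 to 400 CPM over the mice, and the smallest, at 125 to 214 CPM, was lower than these 2 in each of the 3 mice with enough cells.

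Myelin-led reporter cells held 177, 38.3, 312 and 225 CPM of Tfrc, higher in both P70 mice. MOL held 35.6 and 30.5 CPM at P43 and 195 CPM in mouse 7, the MOL sum with 522 CPM of reporter RNA. Tfrc in OL-like cells was therefore 8.64, 7.93 and 1.5 times that in MOL of the same mouse (mice 4, 5 and 7). Whether reporter cells among the MOL of mouse 7 account for its Tfrc was not tested.

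Tfrc was low in Myeloid cells, at 25.6, 26.4, 7.8 and 13.1 CPM, on 5, 11, 34 and 5 UMIs. Both P43 values were above both P70 values, and EC exceeded Myeloid cells 45.8-, 43.4-, 17.9- and 13.9-fold in mice 4, 5, 6 and 7. Neuroblast-like reporter cells held 40.0, 289 and 265 CPM in mice 4, 6 and 7, and astrocyte-like reporter cells 195 and 129 CPM in mice 6 and 7. T and natural killer cells (Lymphoid cells) held 0 to 52.1 CPM. By the mean over mice, EC (660 CPM) stood first and OL-like cells (306 CPM) next, but with a spread of 577 CPM in EC the order of these neighbours was not fixed. OL-like cells, neuroblast-like cells (198 ± 137 CPM, n = 3) and myelin-led reporter cells (188 ± 114 CPM, n = 4) overlapped in range.

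Trf, the iron carrier that oligodendrocytes make, had its highest levels in MOL, with 6553, 5269 and 2798 CPM in mice 4, 5 and 7. Myelin-led reporter cells held 2666, 1717, 1406 and 1853 CPM in mice 4, 5, 6 and 7, and OL-like cells 671, 794, 732 and 931 CPM. In each mouse with all 3 classes the order was MOL, myelin-led reporter cells and OL-like cells. MOL exceeded myelin-led reporter cells 2.46-, 3.07- and 1.51-fold and OL-like cells 9.76-, 6.64- and 3.01-fold in mice 4, 5 and 7. These classes also differ in myelin RNA, which helped to define them. The ages overlapped in OL-like cells.

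EC held little Trf, with 34.3, 28.5, 192 and 83.8 CPM on 33, 56, 232 and 6 UMIs. Both P70 values were above both P43 values, with means of 138 and 31.4 CPM (4.39-fold). The interval of mouse 7 [30.8 to 182] overlapped that of mouse 4 [23.6 to 48.1]. Lymphoid cells held 23.1, 10.8, 11.4 and 314 CPM of Trf in mice 4, 5, 6 and 7, the last on 8 UMIs of 22 cells. In mouse 7 the level of EC was thus below that of Lymphoid cells. The MOL markers summed to 1145, 818, 490 and 657 CPM in EC, lower in both P70 mice, with 2, 0, 3 and 6 of the 8 at 0. Without mouse 6 the log2 difference of Trf was 1.42 instead of 2.13. In Myeloid cells Trf was 389, 262, 110 and 374 CPM, with the lowest value in mouse 6, and astrocyte-like reporter cells held 309 and 414 CPM in mice 6 and 7.

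**Figure D2:**
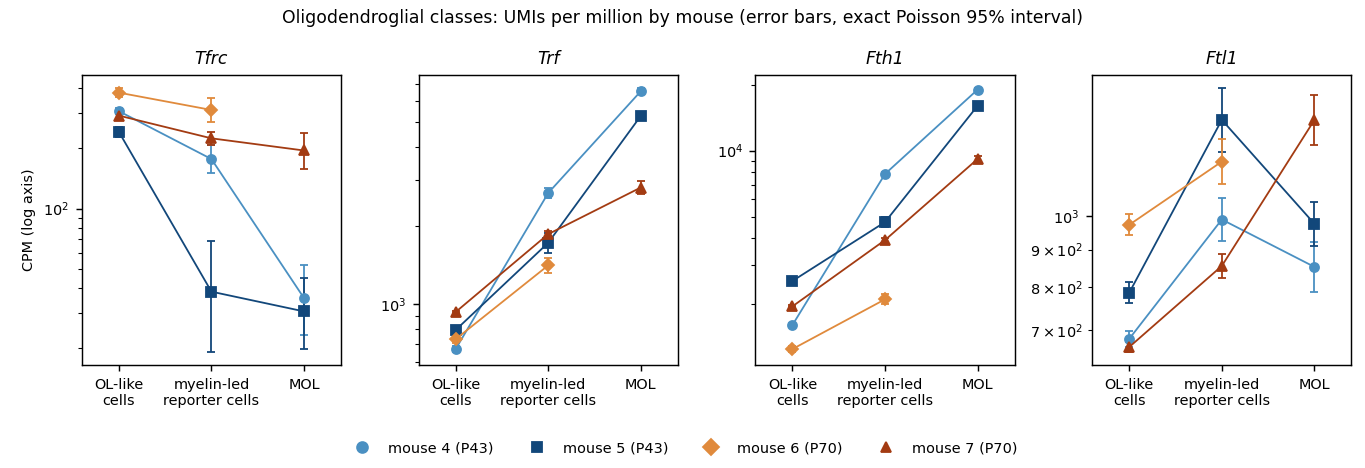
Tfrc, Trf, Fth1 and Ftl1 (CPM, log axis) in OL-like cells, myelin-led reporter cells and MOL, with 1 symbol per mouse. Trf and Fth1 were lowest in OL-like cells and highest in MOL of each mouse with MOL, and Tfrc was lowest in MOL.

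Slc11a2, the transporter that moves iron out of endosomes, was low wherever it was detected. It was 18.7, 13.8, 18.2 and 0 CPM in EC, 13.8, 14.7, 11.9 and 13.5 CPM in OL-like cells, and 20.5, 11 and 6.4 CPM in MOL of mice 4, 5 and 7. EC and OL-like cells overlapped. In Myeloid cells it was 0, 4.8, 15.5 and 2.6 CPM.

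Slc11a1, the transporter of phagosomes, followed the Myeloid cells, with 92.1, 110, 146 and 139 CPM in mice 4, 5, 6 and 7. Both P70 values were above both P43 values, but the intervals of mouse 5 [80.8 to 147] and mouse 7 [104 to 181] overlapped. It was at most 5.0 CPM in EC and was not found in myelin-led reporter or neuroblast-like cells. The B cells of mouse 6 held 197 CPM on 34 UMIs.

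Fth1, the heavy chain of ferritin that oxidizes iron for storage, was higher at P70 in EC and Myeloid cells and lower at P70 in myelin-led reporter cells. In EC it was 2059, 1566, 14404 and 3995 CPM in mice 4, 5, 6 and 7, on 1983, 3075, 17408 and 286 UMIs. The ages did not overlap, and the P70 mean of 9200 CPM was 5.07-fold above the P43 mean of 1813 CPM. The size rested on mouse 6, for the log2 difference was 2.34 with all mice, 1.14 without mouse 6 and 2.99 without mouse 7. Fth1 in Lymphoid cells of mouse 6, cells of another type in the same library, was 1277 CPM and the lowest Lymphoid value of the 4 mice.

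Markers of Myeloid cells, which carry much Fth1, summed to 18.7, 3.57, 336 and 0 CPM in EC, against 14532, 10606, 12590 and 15778 CPM in Myeloid cells themselves. All 8 were at 0 in EC of mouse 7. After removal of EC with any UMI of these markers (13, 6, 64 and 0 cells), Fth1 was 2033, 1568, 14088 and 3995 CPM and Tfrc was 1178, 1149, 132 and 182 CPM. Monocyte markers summed to 21.8, 4.1, 217 and 14.0 CPM in EC. The proliferation genes Mki67 and Top2a summed to 10.4, 4.08, 94.3 and 83.8 CPM, higher in both P70 mice, and EC with a UMI of neither held 2056, 1558, 13485 and 3440 CPM of Fth1 and 1188, 1146, 145 and 187 CPM of Tfrc. The EC markers themselves summed to 17644, 18008, 11314 and 11679 CPM.

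In Myeloid cells Fth1 was 6179, 8284, 19693 and 16972 CPM, with means of 7232 CPM at P43 and 18333 CPM at P70 (2.54-fold). The ages did not overlap. The class was divided into 3 subclusters. In the largest (487 cells, with Ms4a7 at 980 CPM and P2ry12 at 26.9 CPM in mouse 6) Fth1 was 6783, 8690, 18814 and 16104 CPM, so the gap between the ages was seen within it. In the second (330 cells, with the monocyte genes Ly6c2 and Plac8) only the P70 mice had enough cells, and Fth1 was 27030 and 25102 CPM. In the smallest (229 cells, with Ccr2) it was 2954, 5027, 9031 and 14342 CPM. The Myeloid sums of the ages thus drew on different subclusters, beside the gap within the largest and the smallest.

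MOL held 18999, 16024 and 9157 CPM of Fth1 in mice 4, 5 and 7, where the only P70 value is that of mouse 7, with fewer MOL markers and more reporter RNA. Myelin-led reporter cells held 7826, 4719, 2094 and 3905 CPM, and OL-like cells 1599, 2540, 1241 and 1945 CPM. The order of the 3 classes was the same as for Trf in every mouse with all of them, and MOL exceeded OL-like cells 11.9-, 6.31- and 4.71-fold. Both P43 values exceeded both P70 values in myelin-led reporter cells, while the ages overlapped in OL-like cells.

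Ftl1, the light chain that helps iron to settle in the ferritin core, was 4332, 4948, 5048 and 7735 CPM in Myeloid cells, the class with the highest mean. Neutrophils came near, with 4394 CPM in mouse 4 (20 cells, 105 UMIs) and 1859 CPM in mouse 6. In EC it was 918, 1017, 1115 and 964 CPM, and the ages overlapped, unlike Fth1 in the same cells. OL-like cells held 681, 787, 973 and 663 CPM, myelin-led reporter cells 989, 1351, 1186 and 855 CPM, and MOL 853, 976 and 1350 CPM in mice 4, 5 and 7. In each mouse OL-like cells held the least Ftl1 of these classes, as for Fth1, but the ranges over mice overlapped. The order of the other classes varied, unlike Fth1. MOL lay below myelin-led reporter cells in mice 4 and 5 and above them in mouse 7. Reads of Ftl1 may be divided with its near-identical copy Ftl1-ps1, a separate feature that held 30.7, 26.4, 42.0 and 68.0 CPM in Myeloid cells.

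**Figure D3:**
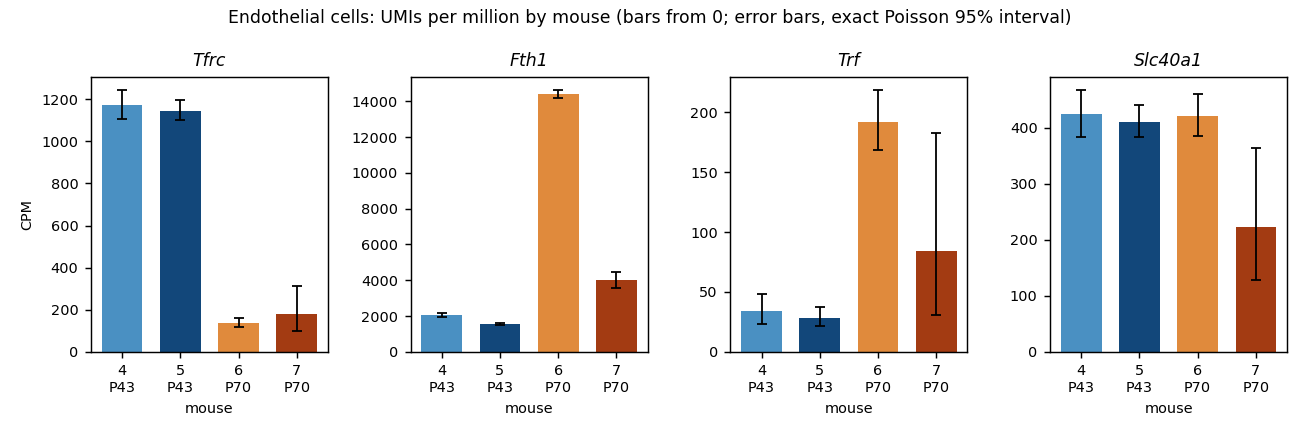
Level (CPM, bars from 0) of Tfrc, Fth1, Trf and Slc40a1 in EC of each mouse, with exact Poisson 95% intervals that cover counting error only. Tfrc was 1172 and 1146 CPM at P43 and 139 and 182 CPM at P70, while Fth1 reached 14404 CPM in mouse 6.

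Slc40a1, which carries iron out of the cell, was an EC gene in these tumors. EC held 424, 411, 421 and 224 CPM in mice 4, 5, 6 and 7. The ages overlapped, and the value of mouse 7 had an interval of 128 to 363 CPM on 16 UMIs. Every other named class was at or under 61.4 CPM in each mouse. Myeloid cells held 5.1, 4.8, 2.5 and 13.1 CPM, OL-like cells 5.0, 0.4, 0.8 and 0.8 CPM, and no UMI was found in MOL.

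Hmox1, which breaks down heme, was a Myeloid gene with 61.4, 62.4, 85.9 and 68.0 CPM in mice 4, 5, 6 and 7. In EC it was 5.2, 9.7, 24.8 and 0 CPM, and the 0 of mouse 7 had an interval that reached 51.5 CPM. OL-like cells held 2.7 to 5.8 CPM. In mural cells, 43 of the 57 UMIs of mouse 6 lay in a cluster of 57 cells led by the fibroblast collagen genes Col1a1 and Col3a1 and by Dcn, where the level was 180 CPM.

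Ireb2, one of the proteins that bind the hairpins when iron is low, lay between 18.9 and 67.9 CPM in the classes described here. It was 57.1, 44.8, 36.4 and 41.9 CPM in EC, 25.6, 36.0, 33.1 and 23.5 CPM in Myeloid cells and 35.9, 37.4, 42.2 and 49.8 CPM in OL-like cells. Both P70 values were below both P43 values in EC (on 3 UMIs in mouse 7) and above them in OL-like cells. The intervals of mice 5 and 6 overlapped in EC [36.0 to 55.2 and 26.5 to 48.9] and in OL-like cells [32.0 to 43.4 and 35.8 to 49.5]. MOL held 46.5, 47.6 and 67.9 CPM, and the ranges of EC and OL-like cells and of EC and MOL overlapped. The values of Myeloid cells and dendritic cells (18.9, 25.5, 29.2 and 34.7 CPM) lay below those of EC and MOL, but within counting error of EC. The nearest were 36.0 CPM [20.2 to 59.4] in Myeloid cells of mouse 5 and 36.4 CPM [26.5 to 48.9] in EC of mouse 6.

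Per-cell counts were compared after each cell was thinned to 2000 UMIs, which left 200, 398, 150 and 9 EC of mice 4, 5, 6 and 7. A Tfrc UMI was found in 78.5%, 76.4%, 17.3% and 22.2% of EC. In Lymphoid cells, which have little Tfrc unless they divide, the share at the same depth was 10.0%, 8.94% and 4.48% in mice 4, 5 and 6, and in Myeloid cells it was 2.94%, 3.64%, 1.35% and 2.27%. The EC median was 2 Tfrc UMIs in both P43 mice and 0 in both P70 mice, so the gap was seen in the middle of the cells and not only in a few with high counts.

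Fth1 had medians of 3, 3, 19.5 and 10 UMIs per EC. Its middle range ran from 2 to 6 UMIs in mouse 4, from 2 to 4 in mouse 5 and from 8 to 42.75 in mouse 6, which was the widest. Within mouse 6, the 26 EC with a Tfrc UMI had a median of 33.5 Fth1 UMIs and the 124 without had 16.5, and in mice 4 and 5 the median was 3 in both. Within a mouse, EC with Tfrc thus did not have the lower Fth1 seen between the ages, apart from mouse 7 with 2 and 7 cells. Slc40a1 was found in 46.0%, 48.7% and 51.3% of EC in mice 4, 5 and 6 and in 0 of 9 EC in mouse 7. That count allows up to 33.3% of cells with a UMI at this depth, and the unthinned EC of mouse 7 did hold 16 UMIs in 36 cells.

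**Figure D4:**
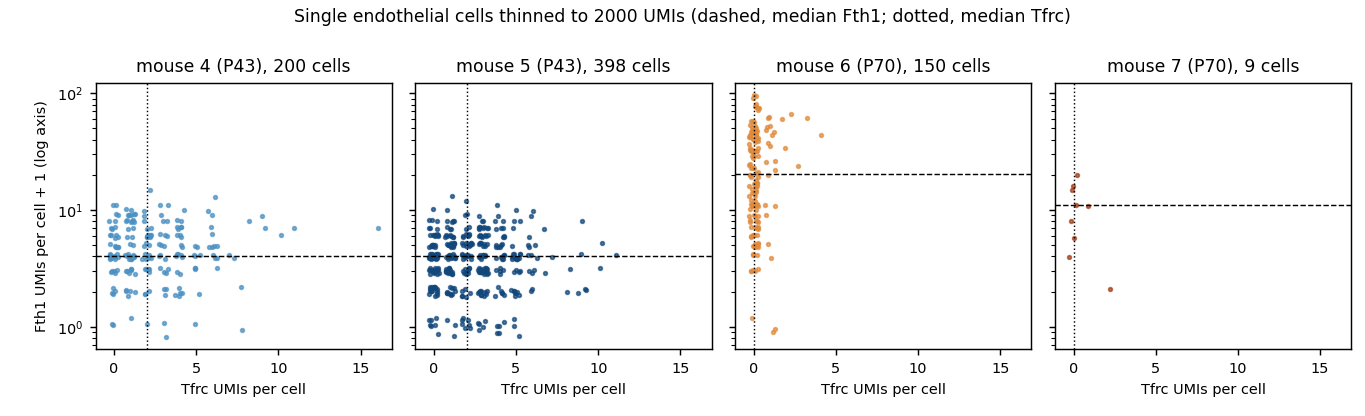
UMIs of Tfrc and of Fth1 plus 1 in single EC thinned to 2000 UMIs, 1 panel per mouse (200, 398, 150 and 9 cells), with medians as lines. Most P43 cells had Tfrc and few Fth1 UMIs, and the EC of mouse 6 spread to high Fth1 with a Tfrc median of 0.

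Age was fitted on counts summed per mouse, with 2 mice per age, so that a p measures only the spread between these mice. In EC, 10.1% of 8809 genes passed edgeR's quasi-likelihood test at a Benjamini-Hochberg adjusted p of 0.05. The members had been chosen on these levels, so their fitted log2 changes are given with no test and no SE. They were -2.88 for Tfrc, 2.46 for Fth1 and 2.57 for Trf. In Myeloid cells 0.135% of 5180 genes passed, and the fitted change of Fth1 was 1.40. In OL-like cells 0% of 11511 genes passed by edgeR (527 at an unadjusted p under 0.05, 43 by DESeq2). In simulated counts the test found 100% of 4-fold changes in EC, 76% in Myeloid cells and 66% in OL-like cells. The changed genes were drawn from those with enough expected counts in the smallest library of the class. That library held 71581 UMIs in EC and 3600778 in OL-like cells, so the 100% does not cover EC genes at low levels. All genes of a class had 1 common dispersion (0.02 in EC, 0.0674 in Myeloid cells, 0.104 in OL-like cells). Neither these rates nor the shares of genes that passed are like for like between classes.

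Mural cells (pericytes and related vessel wall cells) and dendritic cells (DC) were not among the classes by which the genes were chosen. There the members were tested. These cells came from the same 4 libraries and ages, so the tests are not independent of that choice. In mural cells 18.5% of 8626 genes passed, 929 higher and 668 lower at P70. Of the 5 members that passed the filter, Fth1 and Ftl1 rose. Each SE given here is the size of the log2 change divided by the root of the test's F statistic. Fth1 was 1472, 1350, 2118 and 1670 CPM in mice 4, 5, 6 and 7 (log2 change 0.65, SE 0.16, edgeR adjusted p = 0.0166). Ftl1 was 874, 1108, 1457 and 1135 CPM (0.62, SE 0.19, edgeR adjusted p = 0.0382). The ages did not overlap in the summed class, and mouse 6 was highest for both genes.

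The class pooled a larger mural cluster with 57 cells led by the fibroblast genes Dcn, Col1a1 and Col3a1, and 32 of these were of mouse 6. In the larger mural cluster alone, Ftl1 was 859, 1115, 1038 and 1162 CPM, so the ages overlapped, and its call was lost (log2 change 0.30, SE 0.17, edgeR adjusted p = 0.257). The fibroblast-led cells of mouse 6 held 3173 CPM of Ftl1. Fth1 was 1432, 1345, 1781 and 1677 CPM in the larger mural cluster, and its call remained (0.49, SE 0.15, edgeR adjusted p = 0.0335).

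These calls were not firm. The Fth1 call was lost with DESeq2 (adjusted p = 0.0965) and without mouse 4, mouse 5 or mouse 6 (edgeR adjusted p = 0.0674, 0.24 and 0.111). The Ftl1 call was also lost with DESeq2 (0.204) and without any of these mice. In all, the calls were lost in 4 and 7 of 12 other settings. The 1.34-fold gap of the Fth1 means in mural cells stood beside 5.07-fold in EC, and the difference of these changes was not tested. Tfrc in mural cells was 60.9, 28.8, 23.0 and 10.7 CPM (-0.76, SE 0.45, edgeR adjusted p = 0.285) and Trf 134, 51.4, 37.0 and 21.4 CPM (-1.11, SE 0.45, edgeR adjusted p = 0.118). Both had lower values at P70 in both mice without passing the test, and those of mouse 7 rested on 1 and 2 UMIs. Ireb2 gave 0.40 (SE 0.36, edgeR adjusted p = 0.494). Mki67 and Top2a summed to 68.5, 73.9, 336 and 203 CPM in mural cells, and their part in these values was not tested.

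In DC 1.45% of 6127 genes passed, and 0 of the 5 members tested by edgeR (1 at an unadjusted p under 0.05, 0 by DESeq2). Fth1 was 4930, 5509, 6579 and 8689 CPM (log2 change 0.55, SE 0.18, edgeR adjusted p = 0.206). Its values at P70 were above those at P43 in both mice, the direction seen in EC, Myeloid and mural cells. Ftl1 was 1961, 2326, 1932 and 2197 CPM (-0.06, edgeR adjusted p = 0.966), and the ages overlapped. Trf was 329, 268, 65.4 and 253 CPM (-1.07, SE 0.54, edgeR adjusted p = 0.47), lowest in mouse 6 as in Myeloid cells. Tfrc was 60.6, 28.0, 27.3 and 49.6 CPM (-0.29, SE 0.48, edgeR adjusted p = 0.899), and Ireb2 gave 0.37 (SE 0.40, edgeR adjusted p = 0.807).

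The list of 73 other genes of iron and heme handling was read in the same fits. It was chosen with earlier results of these data known, so its counts beside the share of all genes are a description. In EC, 50 passed the filter, 5 rose and 4 fell (all 4 of them hemoglobin genes), beside 10.1% of all genes. Their median log2 change was 0.03, and that of all genes -0.04. Lcn2, which binds bacterial iron carriers, was 20.8, 11.2, 103 and 27.9 CPM in mice 4, 5, 6 and 7 (log2 change 2.78, SE 0.37, edgeR adjusted p = 0.000202). Cp, the ferroxidase that works with ferroportin, was 116, 80.5, 287 and 112 CPM (1.47, SE 0.29, edgeR adjusted p = 0.00376). Steap3, a reductase of endosomal iron, was 36.3, 25, 95.2 and 0 CPM (1.62, SE 0.39, edgeR adjusted p = 0.0148). These 3 rises rested on mouse 6, for without it the adjusted p was 0.809 for Lcn2 and 0.927 for Cp, and Steap3 had no UMI in the remaining P70 mouse.

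Bach1, a heme-sensing repressor of Hmox1 and ferritin genes, was 58.1, 54.5, 113 and 112 CPM (1.12, SE 0.24, edgeR adjusted p = 0.00822). Txnrd1, a thioredoxin reductase of the oxidative stress response, was 66.5, 72.3, 122 and 182 CPM (1.03, SE 0.24, edgeR adjusted p = 0.0135). Both P70 mice were high for these genes. Each lost its call in 4 of 13 other settings. The 4 genes that fell were the hemoglobin genes Hbb-bs, Hbb-bt, Hba-a1 and Hba-a2 (log2 changes of -5.80, -4.77, -6.42 and -5.94), but 2397 of the 2410 hemoglobin UMIs of mouse 4 and 3786 of the 4213 of mouse 5 lay in 1 cell each. Without EC that held such a UMI, 5 other iron genes rose and 0 fell. The number tested and the share of all genes in that setting are not given. No excess of iron genes in EC can therefore be read from these counts.

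In mural cells 43 of the list passed the filter, 4 rose and 3 fell, beside 18.5% of all genes. Nubp1, which assembles iron-sulfur clusters, was 16.7, 22.6, 45.2 and 85.6 CPM (log2 change 1.54, SE 0.38, edgeR adjusted p = 0.0148). Txnrd1 (1.07, edgeR adjusted p = 0.00479), Glrx3, an iron-sulfur chaperone (0.79, edgeR adjusted p = 0.0324, but 0.08 in the larger mural cluster alone), and Bach1 (0.78, edgeR adjusted p = 0.0209) also rose. Txnrd1 and Bach1 passed in the same direction in EC. Txnrd1 was also higher in both P70 mice in Myeloid cells (61.4, 81.6, 132 and 149 CPM) and DC (49.2, 66.9, 85.6 and 124 CPM). It passed the test in neither of these, and in OL-like cells the ages overlapped. Flvcr2, a choline transporter of brain vessels once described as a heme carrier, fell (-2.54, SE 0.59, edgeR adjusted p = 0.011). It was 30.5, 23.6, 4.1 and 0 CPM in mice 4, 5, 6 and 7, on 20, 23, 5 and 0 UMIs. Only its P43 counts met the filter on genes, so the filter favoured a fall. Slc48a1, a heme transporter of lysosomes (-0.97, edgeR adjusted p = 0.0334), and Lrp1, a receptor for heme bound to hemopexin (-0.70, edgeR adjusted p = 0.0381), fell too. DESeq2 called none of the list in mural cells.

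In Myeloid cells 0 of 27 other iron genes passed (edgeR; 6 at an unadjusted p under 0.05, 0 by DESeq2), in OL-like cells 0 of 51 (1 and 0) and in DC 0 of 33 (5 and 1).

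**Figure D5:**
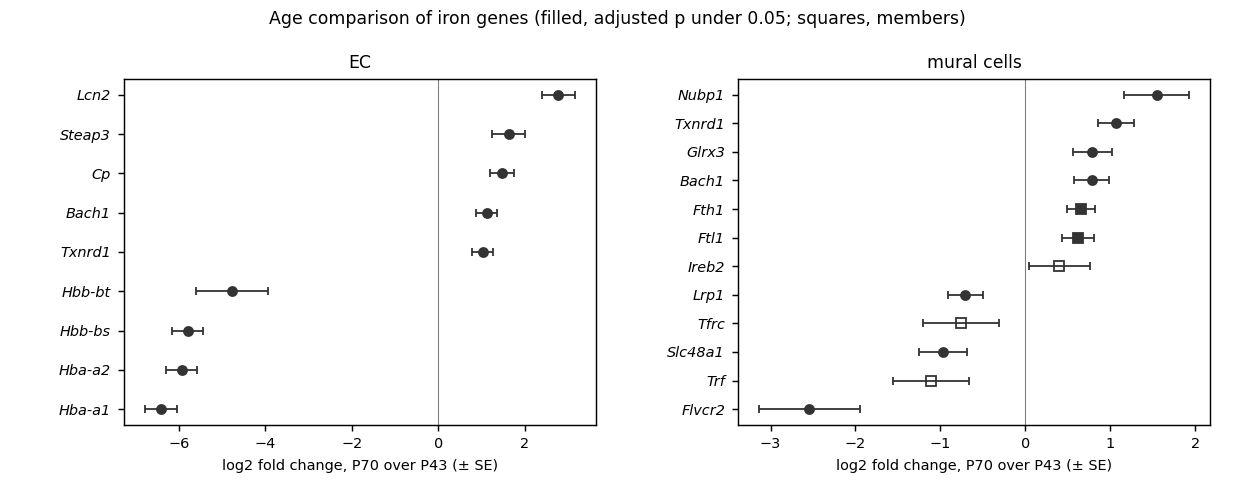
Log2 change at P70 over P43 with its SE for other iron genes called in EC, and for other iron genes called and the 5 tested members (squares) in mural cells. Filled symbols have an adjusted p under 0.05, and the 4 hemoglobin genes of EC, which rest on few cells, lie lowest.

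The other iron genes with the highest levels differed by class. In EC the uptake group was led by Slc39a8, a metal carrier (209 ± 39.1 CPM, SD, n = 4), and the export group by Cp (149 ± 93.5 CPM). Mural cells held more Cp than EC in each mouse, with 729, 713, 453 and 289 CPM in mice 4, 5, 6 and 7. Heme synthesis in EC was led by Alas1, its first enzyme (304 ± 155 CPM). In Myeloid cells the uptake group was led by Lrp1 (215 ± 67.4 CPM) and the heme group by Bach1 (187 CPM). In MOL the sensing group was led by Fbxl5, which removes iron regulatory proteins when iron is ample (239 ± 33.3 CPM, n = 3, against 60.9 CPM in OL-like cells), and the heme group by Slc48a1 (623 ± 110 CPM). In OL-like cells heme synthesis was led by Cpox (205 CPM). Pcbp2, an iron chaperone, led the storage group in EC (370 CPM), Myeloid cells (349 CPM), OL-like cells (535 CPM) and MOL (348 CPM). Glrx5, an iron-sulfur assembly factor, led the mitochondrial group in OL-like cells (345 CPM) and EC (122 CPM), Iscu in Myeloid cells (112 CPM) and Cisd1 in MOL (243 CPM). Gpx4, which removes lipid peroxides, led its group in EC (469 CPM), OL-like cells (369 CPM) and MOL (759 CPM).

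Genes with the most similar pattern over 42 sums of 13 classes were sought among 13238 genes by Pearson's r of log2(CPM + 10), as a description over sums that share libraries. Slc40a1 was nearest to the endothelial genes Grrp1, Erg and Cyyr1 (r = 0.95 each), and Trf to the myelin genes Mbp, Cldn11 and Mag (0.84 each). Ftl1 was nearest to Clec4a3, Cd300c2 and Cd68 (0.92, 0.91 and 0.90), Hmox1 to Clec4a3, C1qb and C1qc (0.80, 0.80 and 0.79), and Slc11a1 to Apobec1, C3ar1 and Cyp4f18 (0.92, 0.91 and 0.89). Fth1 was less like any one class, with Bmp2k, Rhog and Cstb nearest (0.82, 0.79 and 0.76). Tfrc was nearest to Kif26a, Mrps5 and Bag2 (0.81, 0.77 and 0.76), Ireb2 to Bag6, Stk16 and Vps72 (0.91, 0.81 and 0.78), and the sparse Slc11a2 to Ipp, Zfp944 and Mis12 (0.68, 0.66 and 0.66).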

How the data were processed

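Tumors of 4 mice were profiled with 10x 3′ chemistry, and the files hold whole-number UMI counts per gene and barcode as deposited. The authors used Cell Ranger 6.0.2 and the mouse genome mm10 extended by human MYCN and luciferase. Cells with at least 200 genes, a mitochondrial share under 25% and a total of no more than 40000 UMIs entered the classes. Clustering used Seurat 5.3.0 in R 4.3.3 (anchor integration, 2000 variable genes without iron genes, 30 components, resolution 0.5), and clusters were named from marker lists. UMIs were summed per class and mouse. Age was tested for classes of 20 or more cells per mouse with edgeR 4.0.16 (quasi-likelihood test, TMM, filterByExpr, Benjamini-Hochberg limit 0.05), with DESeq2 1.42.0 as an alternative, and the script was tested on simulated data. The other iron genes named are those called with age and the highest of each group. Total counts per library were 15044263, 13106786, 18698291 and 40621958. Intervals cover counting error only. The study's tumors of P77 and P92 are outside the data used here. The members and gene lists were chosen with earlier results of these data known. The EC cells without hemoglobin or Myeloid UMIs and the OL-like and mural alternatives without single clusters were added after the data were seen. One check of oligodendrocyte RNA in EC is not reported here.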

Additional observations from a re-analysis of the deposited data

Results flagged for a closer look

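Members whose log2 difference between the ages (P70 minus P43) was at least 1 in size and ran in opposite directions in a pair of classes, with no overlap between the ages in either class, were picked out for a closer look. Tfrc was higher at P70 in myelin-led reporter cells (1.32) and lower in EC (-2.85), Myeloid cells (-1.32) and mural cells (-1.41), so that the log2 differences lay 4.17, 2.64 and 2.73 apart. Fth1 was lower at P70 in myelin-led reporter cells (-1.06) and higher in EC (2.34) and Myeloid cells (1.34), which lay 3.41 and 2.41 apart. Trf was higher at P70 in EC (2.13) and lower in mural cells (-1.67), which lay 3.8 apart. These differences between classes were not tested, and mouse 5 had 19 myelin-led reporter cells. The mural values of mouse 7 rested on 1 UMI of Tfrc and 2 UMIs of Trf. Neither gene passed the test in mural cells (edgeR adjusted p = 0.285 and 0.118). Their fitted log2 changes there were smaller, at -0.76 and -1.11. The mural Tfrc intervals of mice 5 and 6 overlapped [19.1 to 41.6 and 15.3 to 33.3]. Tfrc in Myeloid cells of mouse 7 rested on 5 UMIs, with an interval [4.2 to 30.5] that covered both P43 values. Trf in EC of mouse 7 rested on 6 UMIs. With 2 mice per age, non-overlap can arise by chance, so the picking is a description.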

How the results depend on the processing

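Log2 differences of the members between the ages were recomputed under alternatives in EC, Myeloid cells, OL-like cells, MOL, mural cells and DC. Those at least 1 in size (11 results) kept their sign in 85 of 85 alternative values, and over all 45 differences 27 of 370 values changed sign. Myelin-led reporter cells were not included, so their flagged differences were not put through these alternatives. The 11 were picked by size from the same libraries that gave the alternatives. Where the ages do not overlap, leaving out a mouse cannot change the sign, so these counts are no independent check. Counts of genes called with age moved more. With DESeq2 they were 221 in EC (edgeR 887), 67 in Myeloid cells (7), 43 in OL-like cells (0) and 585 in mural cells (1597). DESeq2 called 3 other iron genes in EC (edgeR 9), 0 in mural cells (7) and 1 in DC (0), and 0 members in mural cells (2). With no filter on genes the counts were 264 in Myeloid cells, 2 in OL-like cells and 342 in DC (89), with 3, 12 and 3 other iron genes in Myeloid cells, mural cells and DC and 4 members in mural cells. At a mitochondrial limit of 10% they were 12 in Myeloid cells and 34 in DC. With iron genes kept for clustering, which gave no MOL cluster, they were 18 in Myeloid cells, with 1 other iron gene there and 1 member in mural cells. Without the highest doublet scores they were 11 in Myeloid cells and 150 in DC, with 1 member in mural cells and 1 in DC. Without hemoglobin cells, 5 other iron genes were called in EC. Without the fibroblast-led cluster, 1 member was called in mural cells. The cause of these shifts was not tested. Counts of members and other iron genes, here and with mice left out, come without the number tested and the share of all genes called. They therefore cannot show whether these genes were called more often than other genes.

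With each mouse left out in turn, the counts ran from 331 to 1664 in EC, 8 to 412 in Myeloid cells, 0 to 2 in OL-like cells, 635 to 2372 in mural cells and 0 to 243 in DC. The lowest count was without mouse 6 in EC and mural cells and without mouse 7 in DC. Other iron genes ran from 5 to 10 in EC, 0 to 3 in Myeloid cells, 0 to 0 in OL-like cells, 1 to 14 in mural cells and 0 to 3 in DC, and members from 0 to 4 in mural cells and 0 to 1 in DC. A lone mouse of an age was then assumed to vary like the other age. The fitted log2 change spanned 0 for Ftl1 in DC (-0.21 to 0.11), Tfrc in DC (-0.85 to 0.33), Ireb2 in mural cells (-0.18 to 0.91) and Steap3 in EC (-7.89 to 1.82).

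No paired analysis was possible because the replicate numbers only name the mice. The EC of mouse 7 limit the P70 values, with 36 cells and 71581 UMIs.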
